A study of Mus musculus with 6 samples.

Results

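Tnc, Ly6a and Epcam are the genes behind the cell sort of this study, in which open chromatin was profiled by ATAC-seq in 3 keratinocyte populations of mouse back skin. A cell counted as touch dome only if it had switched on a tdTomato reporter through Cre driven by Tnc, if it carried SCA1, the product of Ly6a, and if it carried EPCAM, the product of Epcam. The peaks of the 6 libraries were merged wherever they overlapped, which gave 75738 consensus regions. A region is called open in a library that had a peak there. The regions described here are the 29 whose nearest protein-coding gene span within 50 kb is Tnc (17 regions), Ly6a (5 regions) or Epcam (7 regions). Itga6, which encodes the α6-integrin that every population was also sorted for, is set beside them with its 23 regions.

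All mice were TNC-CREER; tdTomato on a C57BL/6 background, received tamoxifen (100 µg for each g of body weight) on days 51 and 52 after birth, and were 60 days old when their back skin was taken. Touch dome libraries came from cells positive for EPCAM, SCA1, α6-integrin and tdTomato. IFE (interfollicular epidermis) libraries came from cells positive for the same surface proteins and negative for tdTomato, and HF (hair follicle) libraries from EPCAM-positive, α6-integrin-positive cells that lacked both SCA1 and tdTomato. There were 2 libraries per population, each of 50000 cells. The labels give no animal for a library, so the spread between the libraries of a population may be technical. They also do not say whether the Cre sits in the Tnc gene or in a separate copy of its control sequence. A peak at Tnc could include reads from such a copy, which all 3 populations would carry, and this was not tested. Cells that use Tnc but did not recombine the reporter would be sorted as tdTomato negative, and the labels give no share of such cells.

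Tenascin-C is a large glycoprotein of the extracellular matrix that is made during development and wound repair and, in adult skin, around hair follicles and in touch domes, the keratinocyte patches that house Merkel cells. SCA1 is a small surface protein of the Ly6 family, held by a lipid anchor, which marks interfollicular and infundibular keratinocytes and is low on the lower hair follicle. EPCAM is a homophilic adhesion protein of epithelial cells. Because the reporter reads Tnc and the gate reads SCA1 and EPCAM, a difference at these genes is not independent of how the cells were chosen, and the values are given as a description of what the sort carried with it. All 3 genes were chosen with earlier results of these data known.

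The annotated start of Tnc lies inside a region with a peak in all 6 libraries, and so does that of Epcam. The 250 bases before these starts are shown because both genes were open there in every population, including IFE and HF, which were sorted as tdTomato negative. The sequences are from RefSeq (GRCm38.p6, the assembly behind mm10) and run 5′ to 3′ along the gene. Capitals mark matches to any of 9 short motifs searched on both strands.

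Tnc, chr4:64047016-64047265, minus strand: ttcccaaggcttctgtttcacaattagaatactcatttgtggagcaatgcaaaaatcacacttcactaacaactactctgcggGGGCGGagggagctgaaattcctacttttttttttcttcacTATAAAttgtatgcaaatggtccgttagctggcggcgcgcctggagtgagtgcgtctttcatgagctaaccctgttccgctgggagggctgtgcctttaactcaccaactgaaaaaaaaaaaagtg

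Epcam, chr17:87635729-87635978, plus strand: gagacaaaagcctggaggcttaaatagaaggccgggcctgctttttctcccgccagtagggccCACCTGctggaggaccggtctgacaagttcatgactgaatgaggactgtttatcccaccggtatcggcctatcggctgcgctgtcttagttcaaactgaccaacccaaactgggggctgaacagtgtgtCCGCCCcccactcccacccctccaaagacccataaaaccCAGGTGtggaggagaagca

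Before the Tnc start, the GC-rich motif bound by Sp1 (GGGCGG) began 167 bases upstream and the TATA-like core promoter motif (TATAAA) 126 bases upstream. RefSeq also places a Tnc start at 64046936, inside the same open region, and the same 2 matches began 246 and 205 bases before it. Whether either match acts at these distances was not tested. Before the Epcam start, CACCTG, a motif of the Zeb and Snai repressors of epithelial genes, was matched 187 and 19 bases upstream, and GGGCGG was matched on the opposite strand 58 bases upstream. Among 32851 RefSeq promoter windows of the same length, 32.7% held GGGCGG, 12.4% TATAAA and 17.2% CACCTG. The motifs of AP-1 (TGANTCA), NF-Y (CCAAT), Tead (GGAATG), Runx (TGTGGTT), Tcf and Lef (CTTTGAA) and Stat (TTC and GAA separated by 3 bases) had no match in these 2 windows, and 6.75%, 33.8%, 12.6%, 4.40%, 4.46% and 7.02% of all windows held them. None of the searched motifs overlapped another in these windows. GC content was 44.8% before Tnc and 56.4% before Epcam, where the median window had 52.4%.

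Open regions were most numerous at Tnc in touch dome, at Ly6a in IFE, and about even at Epcam. At Tnc, both touch dome libraries were open at 17 regions and both IFE libraries at 11, while HF stood at 13 and 12. At Ly6a the numbers were 4 and 4 in touch dome, 5 and 5 in IFE, and 2 and 2 in HF. At Epcam they were 6 and 7, 7 and 6, and 7 and 7. The touch dome, IFE and HF values did not overlap at Tnc or Ly6a and did overlap at Epcam. The share of all genes whose values do not overlap in this way was not counted, so the separation has no background here. Over all consensus regions the libraries were open at 64.6% and 77.5% in touch dome, 68.2% and 66.3% in IFE, and 71.6% and 74.3% in HF. The lists hold 50153 to 59250 peaks and no read counts, so depth is unknown and an absent peak means only that none was called. Touch dome replicate 1, with the shortest of the 6 lists, still had a peak at every Tnc region.

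**Figure D1:**
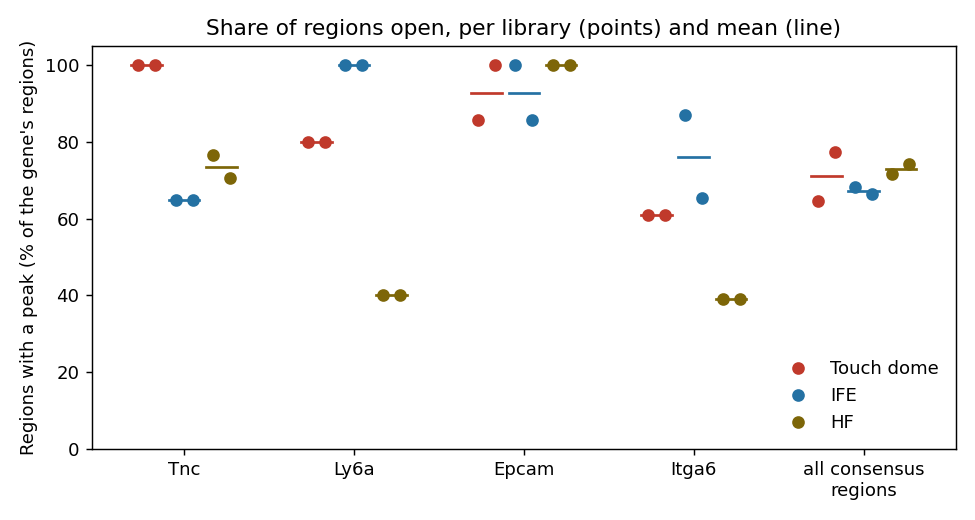
Share of each gene's consensus regions that had a peak (y axis, percent), for Tnc, Ly6a, Epcam, Itga6 and all consensus regions, with 1 point per library and a line at the mean of the 2 libraries of a population. Both touch dome libraries stand at 100% for Tnc, both IFE libraries at 100% for Ly6a, and both HF libraries at 40.0% for Ly6a and 39.1% for Itga6.

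Tnc spans 87.2 kb of chromosome 4 (63959785 to 64047015, mm10, minus strand), so that higher coordinates are upstream of it. Its neighbours are distant, with Tnfsf8 98.3 kb below and Pappa 1077 kb above, and a long noncoding gene, 8030451A03Rik, overlaps 11 of the 17 regions. Exon and intron positions were not used here. With a peak in both libraries of each population, 6 regions (35.3%) were open in all 6 libraries, against 45.2% of all consensus regions. Another 5 were open in touch dome and HF but not in IFE, as 4.02% of all regions were, and 3 were open in touch dome and IFE but not in HF, as 6.52% were. At the last 3, the HF libraries disagreed. None of the 17 was open in touch dome alone, a state that 1.13% of all regions had.

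**Figure D2:**
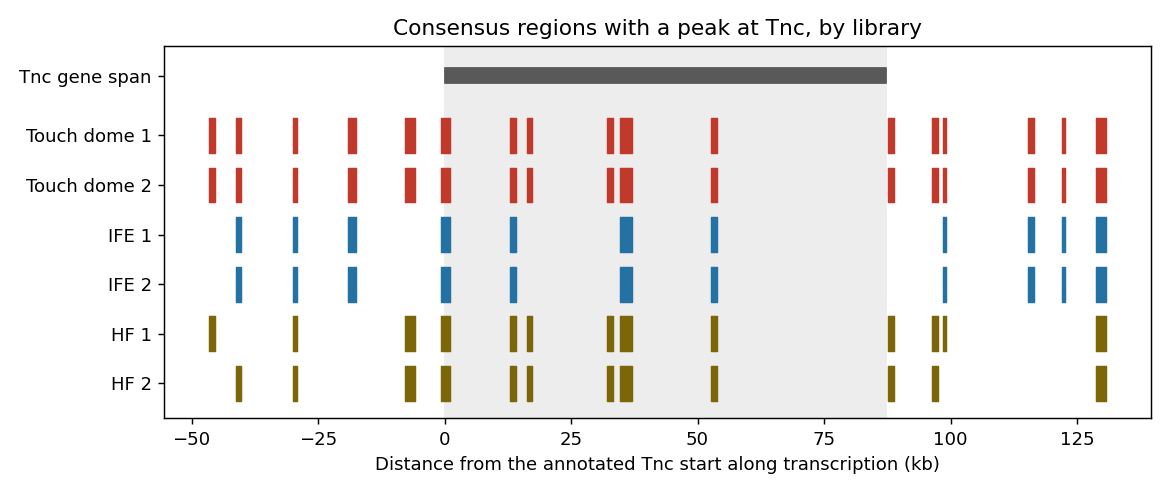
Consensus regions at Tnc that had a peak in each library, drawn at the width of the consensus region, against the distance from the annotated start along transcription (kb, negative values upstream). The grey band is the gene span. The touch dome rows hold all 17 regions, and the regions missing from IFE and those missing from HF are different ones.

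Touch dome differed from IFE at Tnc by 6 regions that had a peak in each touch dome library and in no IFE library, and by 0 the other way. Of all consensus regions, 5.41% were open in touch dome but not in IFE, and 1.80% the reverse. The difference in the mean number of open regions was 6 (17 ± 0 against 11 ± 0, SD, n = 2 each). The exact permutation test, two-sided, gave p = 0.33, the smallest that 2 libraries against 2 can give. When only the wider 50% of each library's peaks was used, 2 such regions were left. Where peaks had to cover at least 50% of a region, there were 4. With every library cut to the same number of its widest peaks there were 6.

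These 6 regions lay on both sides of the gene and inside it. At chr4:63958186-63959287, 498 bp past the gene's downstream end, peaks covered 583 and 679 bp in touch dome, 0 and 0 in IFE, and 1038 and 784 in HF. At chr4:63949498-63950629, 9.16 kb past that end, they covered 878 and 778 bp in touch dome, none in IFE, and 1024 and 1115 in HF. In both, IFE lacked a peak and the HF lengths exceeded the touch dome lengths without overlap.

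Inside the gene, the region chr4:64013735-64014859, 32.7 kb after the start, had 577 and 651 bp under peaks in touch dome, 0 and 0 in IFE, and 1125 and 963 in HF. The region chr4:64029804-64030808, 16.7 kb after the start, had 424 and 1005 bp in touch dome, 0 and 0 in IFE, and 741 and 865 in HF. HF lengths lay above those of touch dome at the first region and between them at the second.

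Upstream, chr4:64052827-64054885, 5.81 kb upstream of the gene, had 558 and 1888 bp in touch dome, 0 and 0 in IFE, and 1937 and 1442 in HF. The touch dome replicates differed more here than at any other Tnc region. The sixth region, chr4:64092363-64093524, 45.3 kb from the gene, had 777 and 614 bp in touch dome, 0 and 0 in IFE, and 1049 and 0 in HF, so a single HF library was open. It is also the member of the Tnc set nearest to the 50 kb limit. The next region beyond the limit, at 50.9 kb, was open in all 6 libraries.

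Touch dome differed from HF at Tnc by 3 regions that had a peak in each touch dome library and in no HF library, and by 0 the other way, where 8.40% and 7.97% of all regions were so placed. The mean number of open regions was 17 ± 0 in touch dome and 12.5 ± 0.707 in HF (SD, n = 2 each), a difference of 4.5 (two-sided exact permutation p = 0.33). This difference was 0 open regions within 10 kb of the gene, where the difference in covered length was -733.5 bp, and -0.5 open regions with the wider 50% of peaks. Without HF replicate 1 there were 5 regions open in touch dome but not in HF. The 3 regions were chr4:63924337-63925059 (610 and 699 bp in touch dome, 659 and 523 in IFE, none in HF), chr4:63930470-63931715 (605 and 1246, 863 and 617, none) and chr4:64064558-64066043 (1139 and 1410, 1486 and 1178, none). At each, the touch dome and IFE lengths overlapped. A peak in HF replicate 1 alone was present at chr4:63947904-63948517 and in HF replicate 2 alone at chr4:64087250-64088316, and both regions were open in all 4 touch dome and IFE libraries.

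IFE and HF differed at Tnc in both directions, with 3 regions open in IFE but not in HF and 5 the reverse, where 10.2% and 14.7% of all regions were so placed. The mean number of open regions was 11 ± 0 in IFE and 12.5 ± 0.707 in HF (SD, n = 2 each), a difference of -1.5 (two-sided exact permutation p = 0.33). It was -0.5 without either IFE replicate, -5 within 10 kb of the gene and -4 with the wider 50% of peaks. Near and far regions of Tnc were open in different populations. Of the 9 regions within 10 kb of the gene, 9 were open in each touch dome library, 4 in each IFE library and 9 in each HF library. Of the 8 farther away, 8 were open in each touch dome library, 7 in each IFE library, and 4 and 3 in the HF libraries. Within 10 kb, therefore, 0 regions separated touch dome from HF and 5 separated it from IFE, and the 3 regions that separated it from HF all lay beyond 10 kb. The 10 kb limit was among the planned windows, and this contrast of near and far regions was chosen after the values were seen.

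The 6 regions open in every library also varied in length. At the region over the Tnc start, chr4:64046029-64047669, peaks covered 1088 and 1375 bp in touch dome, 907 and 770 in IFE, and 1535 and 1302 in HF, so that both IFE lengths were below the other 4. At chr4:64009973-64012354, 35.9 kb into the gene, the lengths were 1426 and 1915 bp in touch dome, 2000 and 1908 in IFE, and 673 and 584 in HF, with the HF lengths the shortest. At chr4:63993108-63994444, 53.2 kb into the gene, IFE had the shortest lengths, with 771 and 836 bp against 1147 and 1294 in touch dome and 1225 and 1186 in HF.

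At Tnc regions open in all 4 libraries of a pair, both touch dome lengths exceeded both IFE lengths at 3 of 11 and the reverse held at 0, where 12.6% and 22.5% of all such regions did so. Against HF, touch dome was longer at 2 of 11 and HF at 3 of 11, against 26% and 25.3% of all such regions. Between IFE and HF, IFE was longer at 2 of 6 and HF at 3 of 6, against 36.7% and 23.9%. Most of these counts lie near the background or rest on few regions.

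**Figure D3:**
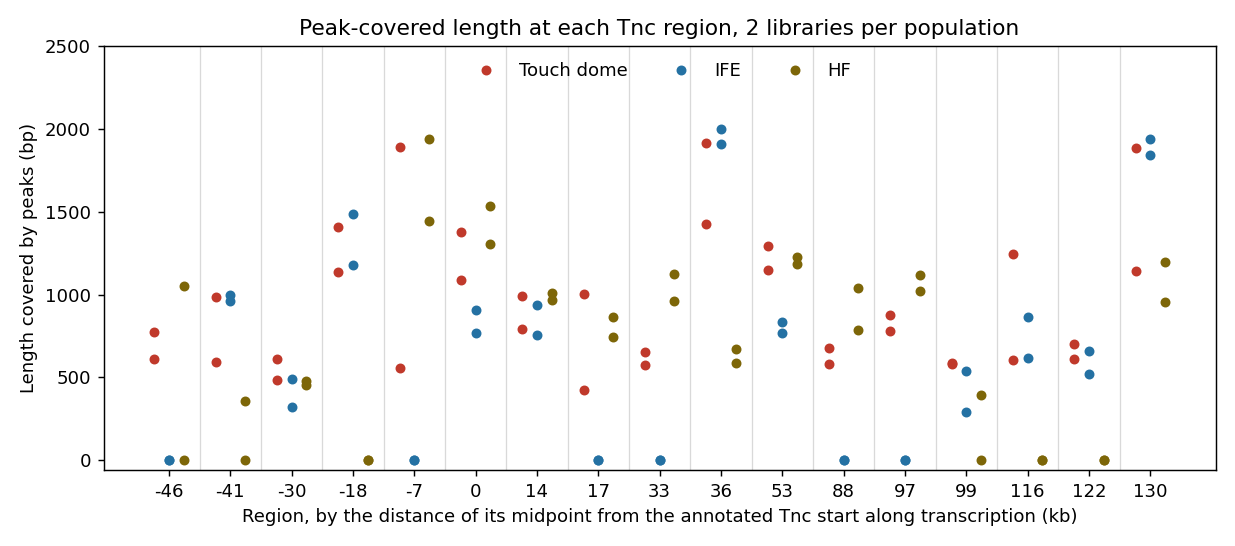
Length covered by peaks (y axis, bp) at each of the 17 Tnc regions, placed in order of the distance of the midpoint from the annotated start along transcription (x axis, kb, not to scale), with 1 point per library. Points at 0 are libraries without a peak, and where both libraries of a population are at 0 their points coincide. Both IFE libraries are at 0 at 6 regions and both HF libraries at 3.

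Summed over the Tnc regions, peaks covered 13410 and 18605 bp in touch dome, 11116 and 10466 in IFE, and 13116 and 11285 in HF. The means were 16008 ± 3673, 10791 ± 460 and 12201 ± 1295 bp (SD, n = 2 each). Touch dome exceeded IFE by 5216.5 bp and HF by 3807 bp (two-sided exact permutation p = 0.33 for each). Without touch dome replicate 2, whose peak list was the longest, these differences were 2619 and 1210 bp, so this library supplied much of the size of the difference in length. The number of open regions depended on it little. With any 1 library left out, touch dome exceeded IFE by 5.5 to 6 open regions and HF by 4 to 5.

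Of 1425 genes with 10 or more regions, 15 (1.05%) had every region open in both touch dome libraries, Tnc among them. This criterion was set from the values of Tnc. For comparison, the share of all regions with a peak in each touch dome library was 62.5%. The genes whose shares of open regions were most like those of Tnc over the 6 libraries, among 1424 others, were Dlgap4, Jarid2, Auh, Zmat4 and Mboat2. Their shares differed from those of Tnc by 4.12, 6.30, 6.92, 7.04 and 7.16 percentage points on average. Dlgap4, with 10 regions, had 100% and 90.0% open in touch dome, 70.0% and 70.0% in IFE, and 80.0% and 70.0% in HF.

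Ly6a, the gene of SCA1, is short, at 3.16 kb (chromosome 15 from 74994877 to 74998031), and lies in a cluster of related genes, with Ly6i 11.4 kb below and Ly6c1 46.0 kb above. A long noncoding gene, Gm28068, spans all 5 of its regions. The treatment of reads that match several Ly6 genes is not stated in the labels. The strand of Ly6a was not used here, and positions are given by coordinate.

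At Ly6a the order was IFE, touch dome, HF, and the gene body was the clearest difference from HF. The region chr15:74995454-74997869, inside the gene span and covering most of it, had 1518 and 1641 bp under peaks in touch dome, 2372 and 1940 in IFE, and 0 and 0 in HF. The region chr15:75019139-75019990, 21.1 kb above the gene, had 410 and 594 bp in touch dome, 852 and 721 in IFE, and 0 and 0 in HF. Both regions had shorter peaks in touch dome than in IFE, without overlap.

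A region at chr15:75001268-75001795, 3.24 kb above the gene, was open in IFE alone, with 528 and 434 bp and no peak in touch dome or HF. This pattern was held by 1.22% of all consensus regions. The other 2 regions were open in all 6 libraries. At chr15:74998178-74999575, 147 bp above the gene span, peaks covered 1059 and 1294 bp in touch dome, 968 and 967 in IFE, and 756 and 434 in HF. At chr15:74988710-74989951, 4.93 kb below the gene and partly over the pseudogene Gm8000, they covered 1047 and 1014 bp, 1220 and 1020, and 393 and 792. HF lengths were the shortest at both.

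**Figure D4:**
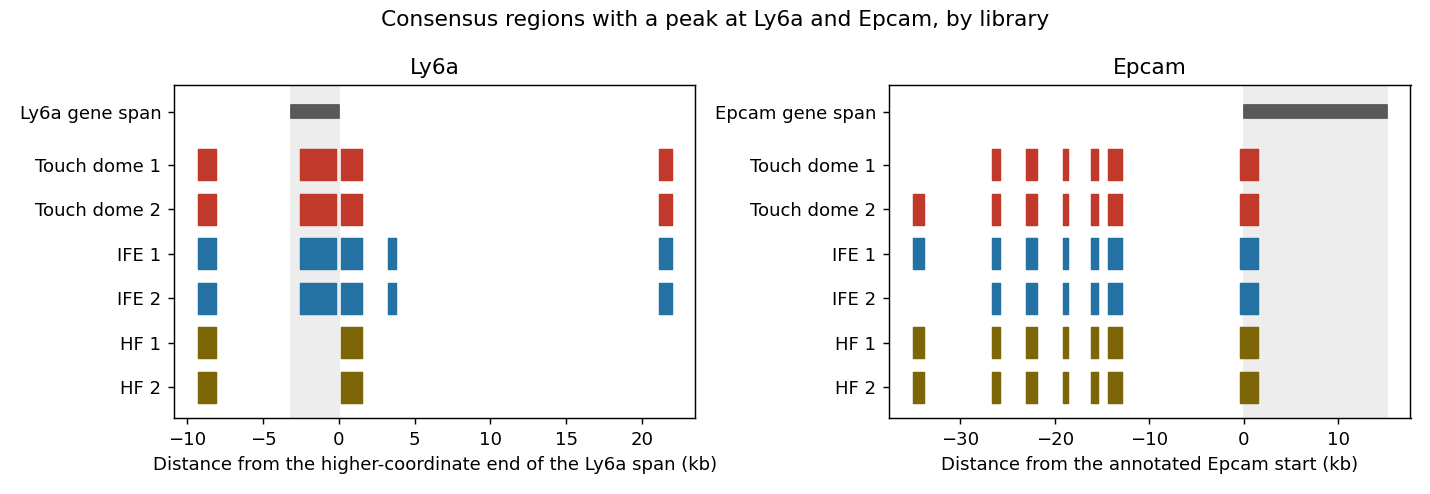
Consensus regions at Ly6a (left) and Epcam (right) that had a peak in each library, drawn at the width of the consensus region, against the distance from the higher-coordinate end of Ly6a or from the annotated start of Epcam (kb). Grey bands are the gene spans. HF rows lack the region inside Ly6a, and at Epcam the 6 rows differ only at the region farthest from the gene.

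Touch dome and HF differed by 2 Ly6a regions open in touch dome and 0 the other way, where 8.40% and 7.97% of all regions were so placed. IFE and HF differed by 3 and 0, where the shares of all regions were 10.2% and 14.7%. The single region that separated IFE from touch dome was open in IFE, as 1.80% of all regions were, with 0 the other way, against 5.41%. These counts rest on 5 regions. The mean number of open regions was 4 ± 0 in touch dome, 5 ± 0 in IFE and 2 ± 0 in HF (SD, n = 2 each), and each of the 3 differences had a two-sided exact permutation p of 0.33. Where a peak had to cover at least 50% of the region, 1 region was open in touch dome but not in HF, and with the wider 50% of peaks none was open in IFE but not in touch dome.

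Summed over the Ly6a regions, peaks covered 4034 and 4543 bp in touch dome, 5940 and 5082 in IFE, and 1149 and 1226 in HF, with means of 4289 ± 360, 5511 ± 607 and 1188 ± 54.4 bp (SD, n = 2 each). The populations did not overlap in any pair, and the two-sided exact permutation p was 0.33 in each. The share of all genes with such a separation in length was not counted. At regions open in all 4 libraries of a pair, both touch dome lengths exceeded both HF lengths at 2 of 2 and both IFE lengths did at 2 of 2, against 26% and 36.7% of all such regions. IFE lengths exceeded touch dome lengths at 2 of 4 and the reverse held at 1 of 4, against 22.5% and 12.6%. Among 4146 genes with 5 or more regions, 17 (0.41%), Ly6a included, had every region open in both IFE libraries and a share in each HF library no larger than 40.0%. This criterion was set from the values of Ly6a. By shares of open regions over the 6 libraries, the fifth closest place among 4145 other genes was shared, with 6 genes within 3.33 percentage points.

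Around Ly6a, the regions of the other Ly6 genes were open in touch dome or IFE but not in HF about as often as all regions were. Of 17 Ly6 family genes listed, 11 had regions, 33 in all. Of these regions, 4 were open in touch dome but not in HF and 0 the reverse, and 6 and 0 were so placed between IFE and HF. Without Ly6a, 28 regions were left, of which 2 (7.14%) were open in touch dome but not in HF and 3 (10.7%) in IFE but not in HF, against 8.40% and 10.2% of all regions. The reverse held at 0 of the 28 in each comparison, against 7.97% and 14.7%. Besides Ly6a, they were at Ly6c1 (1 open in touch dome but not in HF, 2 open in IFE but not in HF) and at Ly6d (1 and 1), which encodes a surface protein of keratinocytes. Between touch dome and IFE, 0 regions were open in touch dome but not in IFE and 2 the reverse, at Ly6a and Ly6c1. Without Ly6a, 1 of the 28 regions (3.57%) was open in IFE but not in touch dome and 0 the reverse. Of all regions, 1.80% and 5.41% were so placed. Ly6e, with 10 regions, had 8 and 9 open in touch dome, 9 and 9 in IFE, and 9 and 8 in HF. Ly6f, Ly6g, Ly6k, Ly6l, Psca and Gpihbp1 had no region.

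Epcam, whose protein was required of all 3 populations, had nearly the same regions open in each. Its span of 15.1 kb (chromosome 17 from 87635979 to 87651127, plus strand) held a single region, the one over its start, and the other 6 lay 12.9 to 33.8 kb upstream of it, 2 of them within the long noncoding gene Gm46609. No region was given to Epcam on its downstream side. Of the 7 regions, 6 (85.7%) were open in all 6 libraries. Of 2619 genes with 7 or more regions, 59 (2.25%), Epcam included, had a share open in all 6 libraries at least as high, a criterion set from the values of Epcam.

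The region over the Epcam start, chr17:87635630-87637455, had nearly the same length in every library, with 1684 and 1686 bp under peaks in touch dome, 1718 and 1691 in IFE, and 1786 and 1740 in HF. The 6 libraries stood between 1684 and 1786 bp, and the order HF, IFE, touch dome held without overlap. The share of all regions with such an order was not counted. The region chr17:87621639-87623062, 12.9 kb upstream, had 921 and 1343 bp in touch dome, 1353 and 1311 in IFE, and 823 and 1001 in HF, where the IFE lengths exceeded the HF lengths. The region chr17:87616812-87617396, 18.6 kb upstream, had 344 and 473 bp in touch dome, 333 and 362 in IFE, and 501 and 585 in HF, the longest.

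The single Epcam region that varied, chr17:87600945-87602191, 33.8 kb upstream, had 0 and 944 bp in touch dome, 466 and 0 in IFE, and 1247 and 400 in HF. It was open in 1 library each of touch dome and IFE and in both of HF, so no pair of populations was separated by it. Thus 0 Epcam regions were open in both libraries of any population and closed in both of another. The nearest region beyond the 50 kb limit, at 64.1 kb, was open in all 6 libraries.

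The mean number of open Epcam regions was 6.50 ± 0.707 in touch dome, 6.50 ± 0.707 in IFE and 7 ± 0 in HF (SD, n = 2 each), and the two-sided exact permutation p was 1 in each comparison. Peaks covered 5519 and 6908 bp in touch dome, 6424 and 5573 in IFE, and 6998 and 5924 in HF. The differences of 215 bp between touch dome and IFE, -247.5 bp between touch dome and HF and -462.5 bp between IFE and HF were smaller than the spread between replicates (two-sided exact permutation p of 1, 0.667 and 0.667). At regions open in all 4 libraries, touch dome lengths exceeded IFE lengths at 0 of 6 and the reverse held at 1 of 6, against 12.6% and 22.5% of all such regions. HF lengths exceeded those of touch dome at 3 of 6 and the reverse held at 0 of 6, against 25.3% and 26%. HF lengths exceeded those of IFE at 3 of 6 and the reverse held at 1 of 6, against 23.9% and 36.7%. Of 2618 other genes, 7 were within 2.68 percentage points of Epcam in their shares of open regions, too many for the naming rule.

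Itga6, the remaining gate gene, differed from Epcam although its protein was also required of all 3 populations. Of its 23 regions, 14 and 14 were open in touch dome, 20 and 15 in IFE, and 9 and 9 in HF. Between IFE and HF, 7 regions (30.4%) were open in IFE but not in HF and 1 (4.35%) the reverse, against 10.2% and 14.7% of all regions. Between touch dome and HF the numbers were 5 (21.7%) and 1 (4.35%), against 8.40% and 7.97%. None separated touch dome from IFE by the presence of peaks. At the 11 regions open in all 4 touch dome and IFE libraries, both IFE lengths exceeded both touch dome lengths at 7 (63.6%). The reverse held at 0, where 22.5% and 12.6% of all such regions were so placed. At 11 of the 23 regions the replicates of at least 1 population disagreed, against 34.6% of all regions. Itgb4, the binding partner of Itga6, had 3 regions, open in every library. Itgb1, also listed as a partner, had 7 regions. Of these, 1 was open in IFE but not in touch dome and 1 in IFE but not in HF, with 0 the reverse in each.

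The relatives and partners of tenascin-C were counted in the same way. Tnr, a tenascin of the nervous system with 8 regions, had 1 open in touch dome but not in IFE, and 3 open in HF but not in IFE. Tnn had a single region, open in HF alone, and none of the 4 regions of Tnxb separated the populations. Without Tnc, the family had 13 regions. Of these, 1 (7.69%) was open in touch dome but not in IFE and 4 (30.8%) in HF but not in IFE. Of all regions, 5.41% and 14.7% were so placed. Of 94 regions at 11 genes for receptors and partners of tenascin-C, 4 (4.26%) were open in touch dome but not in IFE and 3 (3.19%) the reverse, near the 5.41% and 1.80% of all regions. Itga8, an integrin subunit that binds matrix proteins, held 2 of the 4. Of the 94 regions, 5 (5.32%) were open in touch dome but not in HF and 9 (9.57%) the reverse, against 8.40% and 7.97% of all regions. Open in IFE but not in HF were 11 (11.7%), and 15 (16%) the reverse, near the 10.2% and 14.7% of all regions. Within this list, Itga9, the subunit of a tenascin-C receptor, had 3 of its 5 regions open in HF but not in touch dome. Itgb6, with 19 regions, had 1 open in touch dome but not in HF and 3 the reverse, and 2 and 5 between IFE and HF.

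The genes listed with EPCAM had 83 regions at 10 genes, of which 10 (12%) were open in touch dome but not in HF and 4 (4.82%) the reverse, against 8.40% and 7.97% of all regions. Cd44, the hyaluronan receptor gene, had 4 and 1 in that comparison and 3 and 0 between touch dome and IFE. Tspan8, a tetraspanin gene, had 2 and 0 against HF, and Cldn7, a tight junction gene, 1 and 0. Cldn1, another tight junction gene with 16 regions, went the other way, with 1 open in touch dome but not in HF and 3 the reverse. Between touch dome and IFE, 3 regions (3.61%) of the list were open in touch dome but not in IFE and 2 (2.41%) the reverse, against 5.41% and 1.80%. Open in IFE but not in HF were 12 (14.5%), and 5 (6.02%) the reverse, against 10.2% and 14.7%.

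Marker genes of several cell types were counted in the same way. A gene has a region if any 1 library had a peak near it, so having regions does not show that a cell type was present. Each of 5 basal keratinocyte and 8 hair follicle marker genes had regions. At the basal genes the libraries were open at 40 and 47 of 58 regions in touch dome, 46 and 47 in IFE, and 44 and 46 in HF. At the hair follicle genes they were open at 67 and 83 of 112 regions in touch dome, 59 and 59 in IFE, and 93 and 96 in HF. At 6 touch dome marker genes without Tnc, 39 and 43 of 65 regions were open in touch dome, 29 and 30 in IFE, and 57 and 51 in HF, so HF was open at more of them than touch dome. Markers of fibroblasts and melanocytes, cells that a gate for EPCAM should leave out, were also counted. The 6 fibroblast genes had 13 and 16 of 23 regions open in touch dome, 11 and 8 in IFE, and 16 and 16 in HF, with no region at Lum. The 8 melanocyte genes had 22 and 27 of 31, 18 and 18, and 24 and 25, with no region at Tyr or Kit. Open in touch dome but not in IFE were 13 of the 112 hair follicle regions (11.6%), 10 of the 65 touch dome marker regions (15.4%), 5 of the 23 fibroblast regions (21.7%) and 6 of the 31 melanocyte regions (19.4%), against 5.41% of all regions. The reverse held at 1 fibroblast region and at 0 of the other 3 lists. Of these, 5 of the 6 melanocyte regions were at Mitf and 7 of the 10 touch dome marker regions at Cadm1. The Merkel cell list (2 of 18 regions, 11.1%) and the immune list (1 of 5, 20%) also moved this way, with 0 the reverse. The basal list had 2 (3.45%) and 1 (1.72%) the reverse, and the suprabasal and endothelial lists 0 and 0. By this count, the hair follicle, touch dome, fibroblast, melanocyte, Merkel cell and immune lists moved the same way as Tnc. Both Merkel cell regions were at Piezo2, and the immune region was at Ptprc. The numbers of open Merkel cell regions overlapped between touch dome (8 and 12 of 18) and IFE (12 and 9). At Tnc, 5 of the 6 regions open in touch dome but not in IFE were also open in both HF libraries. The part of the lists in the Tnc result was not tested. For Ly6a, which blood and endothelial cells also use, 5 immune genes had 5 and 5 of 5 regions open in touch dome, 4 and 4 in IFE, and 2 and 2 in HF, with no region at Cd207 or Csf1r. The 4 endothelial genes had 12 and 14 of 21, 15 and 16, and 17 and 16, with no region at Cdh5 or Kdr. Of the 5 immune regions, which lay at 3 genes, 3 (60%) were open in touch dome but not in HF and 2 (40%) in IFE but not in HF. Of the 27 suprabasal regions, 4 (14.8%) and 5 (18.5%) were so placed, against 8.40% and 10.2% of all regions. The reverse held at 0 immune regions, and at 1 suprabasal region (3.70%) in each comparison, against 7.97% and 14.7%. Of the suprabasal regions closed in HF, 3 of the 4 and 4 of the 5 were at Grhl3. The suprabasal region that went the other way was at Krt10 in each comparison. By these counts both lists moved the same way as Ly6a between HF and the other populations, and their part in that result was not tested. The 8 Merkel cell genes had 8 and 12 of 18 regions open in touch dome, 12 and 9 in IFE, and 13 and 15 in HF, and the 4 suprabasal genes 22 and 24 of 27, 26 and 23, and 19 and 18.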

How the data were processed

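The data were peak lists of 6 ATAC-seq libraries, 2 for each population. In the deposited lists a peak has its position and name in 4 columns, with no count, score or p-value. The submitters' processing notes name MACS2 2.2.7.1, SAMtools 1.9, Bowtie2 2.4.5 and Trim Galore 0.6.7 and the build mm10, and every library has a list to itself. How these tools were set, whether reads were shifted for the transposase cut and which threshold peaks passed is not given in the sources used here. Sequencing depth is unknown, a missing peak means that none was called, and a longer peak is not a measure of signal.

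Peaks sharing at least 1 bp were merged (Python 3.11.15, NumPy 2.4.6), and each region was given to the nearest of 21887 protein-coding spans of the RefSeq table of GRCm38.p6 within 50 kb, with ties inside overlapping spans going to the longest overlap. Covered length is the summed length of a library's peaks in a region. Populations were compared by two-sided exact permutation tests over libraries, of which there were 18 (3 genes, 3 comparisons and 2 measures). With 2 libraries against 2 none could reach 0.05, so no adjustment was made. They were also compared by counts of regions open in both libraries of one population and neither of another, read beside the share of all regions. Named genes were the members, Itga6, members of the lists with such regions (up to 4 a list), and the 5 genes most like a member in the share of open regions. Tnxb, Ly6e, Itgb4 and the genes without regions were named outside that rule, after their values were seen. The members and lists were chosen with earlier results of these data known. Other settings were a 50% cover, merging within 100 bp, windows of 10 and 100 kb, the wider 50% of peaks, 50153 widest peaks per library, and leaving out each library. The region builder was checked on simulated peaks, with 0 of 546 library states wrong.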

Additional observations from a re-analysis of the deposited data

How the results depend on the processing

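The differences at Tnc and Ly6a between touch dome and IFE, and at Ly6a between each population and HF, kept their direction under every setting run, and the small differences at Epcam did not. Of the differences, 152 values kept their sign, 12 reversed and 16 moved to or from 0, and of the counts of separating regions 169 stayed within 1.5 times and 11 did not. No difference could pass a threshold, since the smallest exact permutation p was 0.33. Depth is unknown, so these settings act on peak width and number only. The cause of the changes below was not tested, except that a narrower window or fewer peaks leaves fewer regions (9, 4 and 1 at Tnc, Ly6a and Epcam within 10 kb, and 14, 3 and 5 with the wider 50% of peaks).

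Within 10 kb, touch dome minus HF at Tnc was 0 open regions and -733.5 bp, with 0 regions open in touch dome but not in HF and 0 open in IFE but not in HF. Ly6a then had 1 region open in touch dome but not in HF. Epcam had -19.5 bp between touch dome and IFE and 0 open regions between either population and HF. Within 100 kb, Epcam gave 0.5 open regions between touch dome and IFE, 0.5 regions and 530 bp between touch dome and HF, 1 region open in touch dome but not in HF, and 0 between IFE and HF. With the wider 50% of peaks, Tnc had 2 regions open in touch dome but not in IFE, a difference of -0.5 open regions between touch dome and HF, and 1 region open in HF but not in touch dome. Ly6a had 0 open in IFE but not in touch dome, and Epcam 1 and 0.5 open regions more in touch dome than in IFE and HF, and 509.5 bp more than in HF. With a cover of at least 50%, Ly6a had 1 region open in touch dome but not in HF, and Epcam stood at 0.5 and 0 open regions (touch dome minus IFE and minus HF), as it did with equal numbers of the widest peaks (0.5 and 0).

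Leaving out 1 library at a time, Epcam differences ranged from -0.5 to 0.5 open regions and from -479.5 to 909.5 bp for touch dome minus IFE, from -1 to 0 regions and from -942 to 447 bp for touch dome minus HF, and from -1 to 0 regions and from -999.5 to 74.5 bp for IFE minus HF. Epcam regions open in HF but not in touch dome, or closed in IFE, ranged from 0 to 1, and Tnc regions open in touch dome but not in HF from 3 to 5.

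The labels do not say that a replicate number marks a shared animal or day. The differences in covered length between replicates 1 and 2 correlated across all regions at 0.0541 (touch dome and IFE), -0.00195 (touch dome and HF) and 0.115 (IFE and HF), so the numbers were not taken to pair the libraries. With a replicate block, sign flips within same-numbered libraries gave p = 0.5, the smallest possible by this exact test, for all Tnc and Ly6a differences (6 and 5216.5 bp for Tnc, touch dome minus IFE) and 0.5 or 1 for Epcam.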
